A study of Mus musculus with 6 samples.

Results

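Bmp7 and the genes around it in bone morphogenetic protein (BMP) signalling were read on whole-genome arrays of induced regulatory T (iTreg) cells with and without the microRNA miR-31. The 10 genes are the ligand Bmp7, the receptors Bmpr1a, Acvr1 and Bmpr2, the transducers Smad1 and Smad5, the inhibitor Smad6, and the inhibitors of DNA binding Id1, Id2 and Id3. They were taken by gene name from the array's own annotation, which gives them 19 of the 41174 probes and 10 of the 27376 different gene names. Bmp7 was chosen by its large rise in this same comparison, so its levels are given as a description, without a test. The 9 other genes are parts of the same pathway.

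BMPs are secreted ligands of the TGF-β superfamily. They bring type I receptors, such as Bmpr1a and Acvr1, together with type II receptors, such as Bmpr2, and the type I kinase then phosphorylates Smad1 and Smad5, which enter the nucleus with Smad4. Smad6 restrains this step, and the Id genes are classical targets of the pathway in many cell types. Id proteins bind the E proteins, transcription factors that steer lymphocyte development, and keep them from DNA. TGF-β itself, which was in the medium of all cultures here, signals mainly through other type I receptors and other Smads.

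The cKO group (miR-31 fl/fl CD4Cre) came from 3 mice in which the Cre recombinase, driven by the Cd4 promoter, removes the floxed miR-31 gene in T cells. The control group came from 3 age-matched mice, labelled only as controls and given by the methods as miR-31 fl/fl mice without CD4Cre. Mice were 6 weeks old. Naive T cells (CD4+CD25-Foxp3gfp-CD62Lhi) were sorted from the spleen (the methods add lymph nodes) and cultured for 4 days with anti-CD3 (5 μg/ml), anti-CD28 (2 μg/ml), TGF-β1 (5 ng/ml) and IL-2 (40 ng/ml in the labels; the methods give another dose). Every culture had a one-colour Agilent array to itself. Controls without Cre leave an effect of CD4Cre itself and the loss of miR-31 together, and these cannot be told apart here.

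No probe of the array is named for miR-31, so the deletion could not be checked. The sequences of both arms of the deleted microRNA, from RefSeq (GRCm38.p6, minus strand), are shown because they are what the cKO cells lack, with the seed, bases 2 to 8, in capitals. They lie at chr4:88910614-88910635 (5p) and chr4:88910577-88910599 (3p).
mmu-miR-31-5p: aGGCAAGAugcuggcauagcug
mmu-miR-31-3p: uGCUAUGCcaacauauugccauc

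Each level below is a log2 signal relative to the 75th percentile of the same array, so that a level above 0 is bright for its array. Between 49.3% and 57.7% of spots per array stood well above background in the extraction software's own call, and 0 were saturated. Probes that passed this call on 3 or more arrays, 22281 in all, entered a limma fit (3 cKO against 3 control arrays), with Benjamini-Hochberg adjustment over all of them. An adjusted p under 0.05 was reached by 54 probes, 0.242% of those tested. That number is fragile, since 26 of the 54 had an adjusted p of at least 0.049. With any array left out, 0 to 1 probes were called higher and 0 lower in cKO, and with the slide as a term 0 were called. Precision is limited by the number of arrays. A lower level in a culture can come from fewer cells that express a gene or from less RNA per cell, which cannot be told apart.

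The arrays differed in ways that matter for these genes. cKO array 3 stood apart, with a Pearson's r across tested probes of 0.974 and 0.979 to the other cKO arrays, against 0.985 between those, and an array weight of 0.173 that was the lowest of the 6. Control array 1 shared a slide with all 3 cKO arrays, whereas control arrays 2 and 3 shared a different slide, so slide and genotype are partly confounded. Values without cKO array 3 or within the shared slide are given where they bear on a result.

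The T-cell identity of the cultures was plain on every array. All 8 T-cell markers tested (Cd3d, Cd3e, Cd3g, Cd4, Cd2, Cd5, Cd28 and Lck) were well above background on all 6 arrays. By brightest probe, Cd3g (0.74), Cd4 (0.66), Cd28 (0.43) and Cd3d (0.38) lay higher and Cd3e (-0.28) lower on every cKO array, with an unadjusted p under 0.05 for 5 of the 8 and an adjusted p under 0.05 for 0. Over all tested probes 15.9% lay above, 20.7% lay below and 23.0% had an unadjusted p under 0.05. Without cKO array 3 the difference was 0.47 for Cd3g, 0.46 for Cd4 and 0.27 for Cd28. Foxp3, the defining transcription factor of regulatory T cells, had levels of 3.16, 3.12 and 2.45 on cKO arrays 1 to 3 and of 3.42, 3.42 and 3.76 on control arrays 1 to 3. The cKO arrays lay below the control arrays, with a log2 difference of -0.62 (SE 0.22) that did not pass the test (adjusted p = 0.192 from limma). It was -0.39 without cKO array 3 and -0.50 within the shared slide.

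Bmp7 (NM_007557, mm9 chromosome 2, minus strand) is a ligand known for its part in kidney and bone development. Different probes, 2 in all, read it, and both separated the genotypes widely. The brighter probe, from 172695203 to 172695262, had levels of -1.54, -1.03 and 0.26 in cKO and of -4.54, -4.22 and -4.61 in control cells. On the 3 cKO arrays, and of the controls on array 2 alone, it stood well above background. The lowest cKO array therefore exceeded the highest control array by more than the whole range of either group, and cKO array 3 was the highest. The group means were -0.77 ± 0.93 and -4.46 ± 0.21 (SD, n = 3 each), a log2 difference of 3.69, with 2 of the 3 control arrays not well above background.

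The dimmer Bmp7 probe, from 172695282 to 172695341, is printed 10 times on each array, which gives a view of the technical error. Its cKO levels were -2.14, -1.62 and -0.39, and all 10 spots were well above background on each cKO array. Its control levels were -5.44, -5.14 and -5.48, and 0 of the 8, 10 and 9 spots kept on control arrays 1 to 3 were well above background. The SD over spots of an array was 0.04 to 0.11 in cKO and 0.18 to 0.36 in control cells. This is the spread of repeated spots and says nothing of the spread between mice. The difference of the means was 3.97, or 15.7-fold higher in cKO cells by this probe. It sets the cKO mean against the control probe's own signal, which lay above the lowest signal called well above background on each control array. Since no kept control spot passed the call, the size of this difference is uncertain and is not a lower limit.

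**Figure D1:**
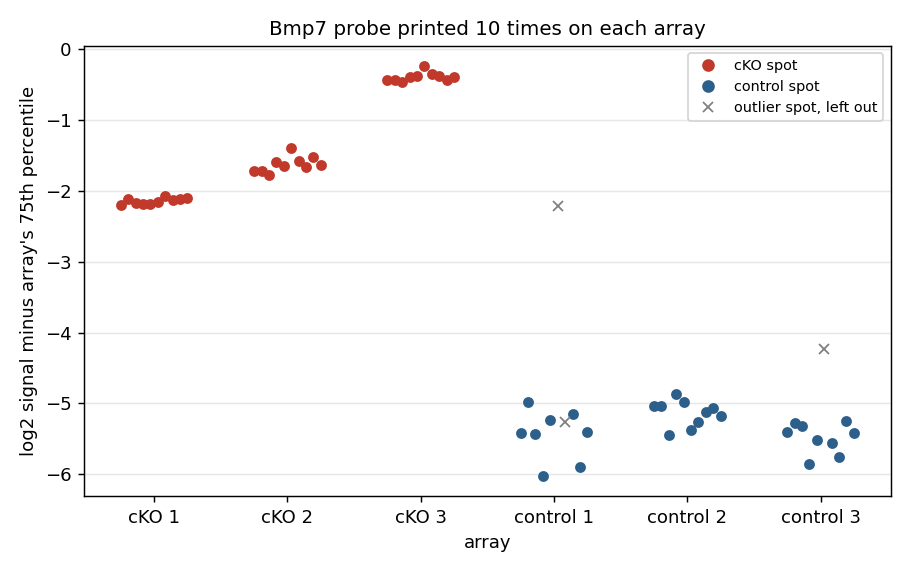
Level on the log2 scale, relative to the 75th percentile of the array (vertical axis), of the 10 spots of the dimmer Bmp7 probe on each of the 6 arrays (horizontal axis). Each point is a spot, crosses are spots the software marked as outliers, and the cKO spots run from -2.2 to -0.24 while the kept control spots run from -6.02 to -4.86.

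On control array 1, 2 of the 10 spots were marked as outliers and left out, and on control array 3 it was 1 spot. Of these, the spot at -2.21 on control array 1 and the spot at -4.24 on control array 3 did pass the background call. The size of the Bmp7 difference depended on how the background was handled. With normexp background correction the brighter probe differed by 2.14 after quantile normalization and by 2.42 with the 75th percentile. The dimmer probe then differed by 1.92 and 2.31, less than the 3.97 given above. Without cKO array 3 the differences were 3.17 and 3.47. Within the shared slide, the cKO mean exceeded control array 1 by 3.77 and 4.06.

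The genes closest to Bmp7 in pattern over the 6 arrays were sought. For each of 14349 other gene names, the brightest tested probe was centred on its mean and set against the brighter Bmp7 probe, and the root mean square difference was taken. The 5 closest were Ypel4 (0.37), Gm17634 (0.44), Pls1 (0.47), Tmprss6 (0.50) and Tmem121 (0.54). Ypel4, the closest, had levels of -4.18, -3.53 and -1.48 in cKO and of -6.23, -6.13 and -6.84 in control cells. All 5 stood well above background on each cKO array, and Tmem121 also was on the 3 control arrays. Pls1 and Tmprss6 passed that call on 1 control array each. Ypel4 and Gm17634 passed it on 0 control arrays, so they were tested through the cKO arrays alone and their control levels are not well measured. Like Bmp7, all 5 were highest on cKO array 3. This is a description over 6 arrays and was selected for likeness, with no test.

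Of the other ligands listed, none was measured well enough to be tested. The list holds 13 further BMP and GDF ligand genes, among them Bmp2, Bmp4 and Bmp6, and is not every such gene. Of the 13, 10 were not well above background on any array. Bmp4 was well above background on 1 cKO array, and Bmp6 and Gdf5 on 1 control array each. By its probe Gdf5, the brightest here, lay between -5.07 and -4.37 on the 6 arrays, Bmp6 between -6.73 and -3.99 and Bmp15 between -6.82 and -4.49, with overlapping groups. None of the 13 was well above background on more than 1 array.

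Among the receptors, Bmpr1a was higher on every cKO array while Acvr1 and Bmpr2 were not separated. Bmpr1a (NM_009758), the type I receptor for several BMPs, was read on chromosome 14 from 35224339 to 35224398. Its levels were -0.61, -0.65 and -0.38 in cKO and -1.43, -1.10 and -1.27 in control cells. The groups did not overlap, and the spread within each (SD 0.14 and 0.16) was small beside the log2 difference of 0.72 (95% confidence interval 0.39 to 1.04), or 1.64-fold. It did not pass the test across all probes (adjusted p = 0.0966 from limma), and 10.9% of all tested probes differed by at least as much. The difference was 0.88 within the shared slide and 0.63 without cKO array 3. A second Bmpr1a probe was not well above background on any array and was not tested.

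Acvr1 (NM_007394, chromosome 2, 58299596 to 58299655), the type I receptor also known as ALK2, overlapped between the genotypes. Its levels were -0.21, -0.09 and -0.75 in cKO and -0.18, -0.27 and 0.11 in control cells, a log2 difference of -0.23 (95% confidence interval -0.74 to 0.27). Only cKO array 3 lay below all controls, and without it the difference was -0.03. Bmpr2, the type II receptor, was read on chromosome 1 by a probe from 59934262 to 59934321 (transcript AK011534) and another from 59927276 to 59927335 (NM_007561). The brighter had levels of 1.54, 1.54 and 1.35 in cKO and 1.41, 1.53 and 1.63 in control cells. Both probes overlapped between the genotypes, with log2 differences of -0.05 (95% confidence interval -0.33 to 0.23) and -0.07 (-0.39 to 0.25).

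The transducers overlapped between the genotypes by their brightest probes. Smad1 (NM_008539, chromosome 8, 81863418 to 81863474) had levels of 1.64, 1.84 and 1.93 in cKO and 1.94, 1.77 and 1.86 in control cells, a log2 difference of -0.06 (95% confidence interval -0.34 to 0.23). Smad5 (NM_008541, chromosome 13, 56843557 to 56843616) had 1.78, 1.36 and 1.65 in cKO and 1.69, 1.78 and 1.84 in control cells, a difference of -0.17 (-0.51 to 0.16). Neither interval reached beyond -0.51 or 0.23. Leaving out an array gave -0.27 to -0.05 for Smad5.

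Dimmer probes of the same transducers lay apart in part. A second Smad1 probe had levels of -2.72, -2.68 and -2.52 in cKO, all below the control levels of -2.32, -2.38 and -2.16, with a log2 difference of -0.36 (adjusted p = 0.169). The third Smad5 probe, from 56839004 to 56839063, had levels of -2.40, -2.43 and -3.08 in cKO, all below the control levels of -2.01, -2.02 and -1.90, with a difference of -0.66 (adjusted p = 0.163). With normexp background correction and the 75th percentile both turned, to 0.22 and 0.07. The middle Smad5 probe showed -0.07 with overlapping groups, and differences between the probes were not tested.

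Smad6 (NM_008542, chromosome 9, 63801378 to 63801437), the inhibitory Smad that BMP signals themselves induce in many cells, did not separate the genotypes. Its levels were -3.20, -3.0 and -3.17 in cKO and -3.49, -3.10 and -2.94 in control cells. The log2 difference was 0.05 (95% confidence interval -0.35 to 0.46, adjusted p = 0.862), and Smad6 was well above background on all 6 arrays. Within the shared slide the difference was 0.37, and with normexp background correction and the 75th percentile 0.59. Without control array 1 it turned to -0.11.

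**Figure D2:**
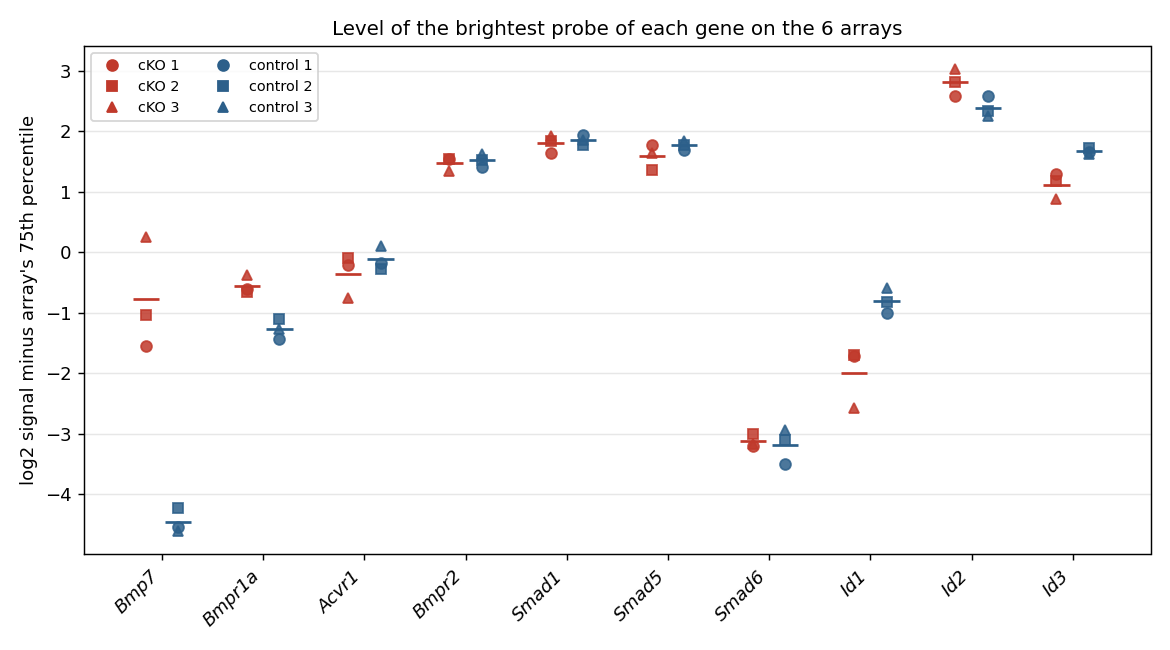
Level on the log2 scale, relative to the 75th percentile of the array (vertical axis), of the brightest probe of each of the 10 genes (horizontal axis), with a symbol per array and lines at the means of 3 arrays. Bmp7 and Bmpr1a lie higher on all cKO arrays, Id1 and Id3 lower, Id2 narrowly higher, and the other 5 overlap; levels of different probes are not comparable with each other.

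The 3 Id genes lay on different sides of the control level, Id1 and Id3 below it and Id2 above, and none passed the test by its brightest probe. Id1 (NM_010495, chromosome 2, plus strand) is a widely used readout of BMP signals. Its levels by the probe from 152563036 to 152563095 were -1.71, -1.70 and -2.57 in cKO and -1.0, -0.82 and -0.59 in control cells. All cKO arrays lay below all control arrays, and cKO array 3 was the lowest. The log2 difference was -1.19 (SE 0.26, 95% confidence interval -1.84 to -0.55), 2.29-fold lower in cKO, with an adjusted p of 0.119 from limma. A second Id1 probe, from 152563046 to 152563105, overlaps the first along most of its length and is no independent measurement: it gave -1.30 (adjusted p = 0.104). Differences at least as large as that of the brighter Id1 probe were found in 3.59% of all tested probes. Without cKO array 3 the Id1 difference was -0.91, and within the shared slide -1.0. With normexp background correction and the 75th percentile it was -0.53, and -0.40 for the second probe.

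Id3, which with Id2 restrains E proteins in T cells and is needed for normal regulatory T cells, was also lower on all cKO arrays. Its probe (NM_008321, chromosome 4, plus strand) covers 175 bases of genome from 135700075 to 135700249, although it is 60 bases long, and so reads across a splice junction. Its levels were 1.29, 1.18 and 0.88 in cKO and 1.66, 1.72 and 1.63 in control cells. The control arrays lay within a narrow range (SD 0.05) and the cKO arrays all below it, with cKO array 3 again the farthest. The log2 difference was -0.55 (SE 0.13, 95% confidence interval -0.88 to -0.23), 1.47-fold lower, with an adjusted p of 0.127. It was -0.55 within the shared slide and -0.43 without cKO array 3.

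Id2 was read by 3 probes that point the same way with different sizes. The brightest (NM_010496, chromosome 12, minus strand, 25780183 to 25780530) also crosses a splice junction, covering 348 bases of genome. Its levels were 2.59, 2.81 and 3.03 in cKO and 2.58, 2.34 and 2.26 in control cells. The lowest cKO array exceeded the highest control array by only 0.01, both on the shared slide, and the log2 difference was 0.42 (95% confidence interval 0.04 to 0.79, adjusted p = 0.196). It was 0.23 within the shared slide and 0.31 without cKO array 3. A second probe for the same transcript, from 25778904 to 25778963, gave 0.39 with overlapping groups (adjusted p = 0.256). For this probe the difference was 0.17 within the shared slide and 0.24 without cKO array 3. The 2 junction-crossing probes are shown as the array carries them, since they read joined exons of the spliced transcript.
Id2 probe: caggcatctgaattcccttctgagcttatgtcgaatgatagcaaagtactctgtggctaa
Id3 probe: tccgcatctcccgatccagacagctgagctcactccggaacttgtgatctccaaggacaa

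The third Id2 probe was the only probe of the 9 other genes to pass the test. It is annotated to another transcript, AK013239, and lies between the other Id2 probes at 25780080 to 25780139. Its levels were -1.09, -1.01 and -0.82 in cKO and -2.07, -2.16 and -2.14 in control cells. The groups lay far apart beside their spread (SD 0.14 and 0.04), with a log2 difference of 1.15 (SE 0.11) or 2.22-fold, and an adjusted p of 0.0444 from limma. It was 1.10 within the shared slide and 1.07 without cKO array 3, but the call was lost when any of the 6 arrays was left out (adjusted p = 0.056 to 0.185) and with the slide as a term (adjusted p = 0.292). Its adjusted p ran from 0.0101 to 0.462 over all alternatives. The size of the Id2 difference therefore depended on which probe is read, and whether AK013239 is the same RNA as the coding transcript was not tested.

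**Figure D3:**
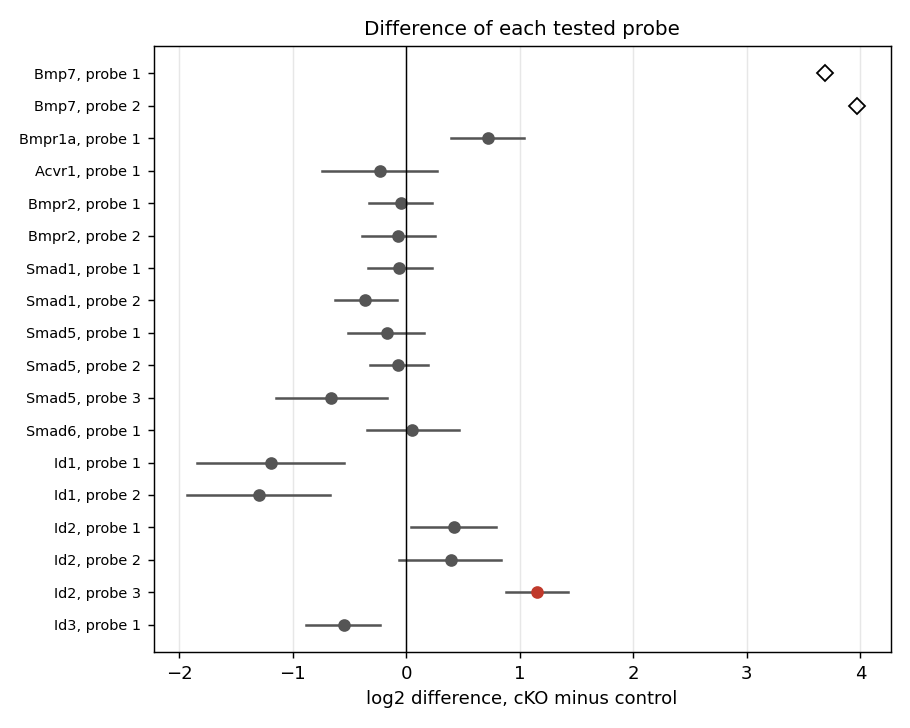
Log2 difference, cKO minus control (horizontal axis), for each of the 18 tested probes of the 10 genes (vertical axis, numbered from the brightest), with 95% confidence intervals from limma as lines. The red point, the third Id2 probe at 1.15, is the only probe of the 9 other genes with an adjusted p under 0.05; Bmp7, drawn as open diamonds at 3.69 and 3.97, was chosen by its rise and has no interval.

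Counted together, 1 of the 16 tested probes outside Bmp7 passed the test, the third Id2 probe, beside 0.242% of all tested probes. By brightest probe it was 0 of 9 genes. The unadjusted p from limma was under 0.05 for 8 of the 16 probes, beside 23.0% of all probes. These 8 are not independent, since some read the same gene, among them both overlapping Id1 probes. The genes were also chosen with earlier results of these data known, so the count is a description. Of the 9 brightest probes, Bmpr1a and Id2 lay higher on every cKO array, beside 15.9% of all tested probes, and Id1 and Id3 lay lower on every cKO array, beside 20.7% of all tested probes. The other 5 overlapped. The median log2 difference of the 9 was -0.06, beside -0.04 over all tested probes.

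Promoters of Id2 and Id3 are shown because these targets of the same pathway lay on opposite sides of the control level by their brightest probes. Neither of these differences passed the test, and a link to promoter sequence was not tested. The 250 bases before each start site come from RefSeq (GRCm38.p6), at chr12:25096093-25096342 on the minus strand for Id2 and chr4:136143572-136143821 on the plus strand for Id3. The letters GGCGCC, a GC-rich element that Smad proteins can bind, which reads the same on both strands, are in capitals.
Id2 promoter: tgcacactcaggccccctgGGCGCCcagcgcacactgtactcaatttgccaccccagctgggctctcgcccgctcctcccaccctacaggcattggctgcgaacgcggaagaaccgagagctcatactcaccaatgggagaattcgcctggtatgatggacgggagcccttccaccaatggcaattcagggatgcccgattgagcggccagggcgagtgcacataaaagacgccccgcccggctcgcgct
Id3 promoter: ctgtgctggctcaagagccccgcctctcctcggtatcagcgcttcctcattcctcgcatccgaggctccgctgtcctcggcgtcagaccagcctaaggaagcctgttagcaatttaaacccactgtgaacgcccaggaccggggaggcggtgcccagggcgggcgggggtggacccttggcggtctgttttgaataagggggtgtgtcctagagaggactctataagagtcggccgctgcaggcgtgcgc

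GGCGCC occurred 1 time in the Id2 window and in 9.59% of 32851 mouse promoter windows of the same length. It also occurred 1 time in the windows of Bmpr1a and Bmpr2. The Id3, Acvr1, Smad1 and Smad6 windows did not hold these letters, and 1 of the 3 Smad5 windows did. Bmp7 and Id1 were not searched. The shorter Smad half-site GTCT, sought on both strands, occurred 1 time in the Id2 window, 2 times in the Id3 window and in 82.9% of all windows. A match of letters is a description of sequence and not a binding site.

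Beyond the 10 genes, 58 genes of the pathway and its partners were listed, with 27 of them tested by their brightest tested probe. None passed the test (0 of 27 in limma), and 5 of 27 had an unadjusted p under 0.05, beside 23.0% of all tested probes. Of the 27, 4 lay higher and 5 lower on every cKO array, and 18 overlapped, which is near the shares over all tested probes (15.9% above and 20.7% below).

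Of 9 further receptor and co-receptor genes, 5 were tested. Rgmb, a BMP co-receptor also called DRAGON, was lower on every cKO array by its brightest probe, with levels of -2.03, -2.52 and -2.39 against -1.62, -1.32 and -1.03 in control cells. Its log2 difference was -0.99 (SE 0.20, adjusted p = 0.107), and a second probe gave -1.09 (adjusted p = 0.175). Acvr2a, a type II receptor for activins and BMPs, had a difference of -0.88 (adjusted p = 0.206). Its cKO levels of -3.44, -4.39 and -3.08 lay below the control levels of -2.84, -2.91 and -2.52, and 1 cKO array did not pass the background call.

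Acvrl1, the type I receptor ALK1 best known from blood vessels, had the largest difference and the largest error of the list. Its levels were -1.18, 0.06 and 0.98 in cKO and -1.92, -1.72 and -5.63 in control cells. Control array 3 alone was not well above background, and the log2 difference of 3.04 had an SE of 1.14 (adjusted p = 0.200). Without that array the difference was 1.77. Bambi, a decoy receptor, and Eng, endoglin, overlapped between the genotypes (-0.27 and -0.37). Without cKO array 3 Bambi was at -0.45 and Eng at -0.60, and without control array 3 Eng turned to 0.04. Bmpr1b, a further type I receptor, was not well above background on any array.

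Of 16 extracellular antagonist genes, which bind or block BMPs outside the cell, 7 were tested, with a median difference of -0.23. Chordin (Chrd) lay lower on every cKO array, with levels of -3.77, -3.99 and -3.16 against -1.97, -2.65 and -2.77, a difference of -1.17 (SE 0.30, adjusted p = 0.133). Nbl1, a member of the DAN family, lay higher, with 0.01, 0.36 and 0.77 against -0.19, -0.38 and -0.93, a difference of 0.88 (SE 0.27, adjusted p = 0.162). Noggin (Nog) was well above background on 1 cKO and 2 control arrays, and its difference of -1.45 had an SE of 0.67 (adjusted p = 0.246). Within the shared slide its sign turned, to 0.18. Twsg1 and Crim1, bright antagonists of the list, overlapped (-0.12 and -0.23, or 0.01 and -0.11 without control array 3).

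The shared transducers and intracellular inhibitors differed little by their brightest probes. Of 12 genes, 11 were tested, and by that probe all differed by 0.35 or less in size on the log2 scale. The largest, Fkbp1a at -0.35, was -0.09 without cKO array 3. Smad4, the common partner of Smads, differed by 0.11 (SE 0.12) and Smad7, the inhibitor of TGF-β and BMP receptors, by -0.09 (SE 0.13). Without cKO array 3 Smad4 was at 0.01 and Smad7 at -0.19. The Smad corepressors Ski and Skil differed by -0.19 and -0.10 (Skil -0.04 without control array 3). The ubiquitin ligase Smurf1 lay lower on every cKO array (-0.26, adjusted p = 0.224 from limma), also by its second probe (-0.21). Its relative Smurf2 lay higher by its brightest probe (0.20, adjusted p = 0.293), but its other probes overlapped (-0.09 and 0.02). Tob1 also lay higher on every cKO array (0.17, adjusted p = 0.340). Ski lay lower (adjusted p = 0.305), as did its second probe (-0.41, adjusted p = 0.179). The phosphatase Ppm1a differed by 0.03. Smad9, which carries BMP signals along with Smad1 and Smad5, was not well above background on any array.

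Other target genes were mostly not measured. Of 5, Id4, Msx2 and Atoh8 were not well above background on any array, and Msx1 overlapped (-0.32, or -0.16 without control array 3 and 0.56 within the shared slide). Hey1, a target of BMP and Notch signals, passed the background call on cKO arrays 2 and 3 only and was not tested. Its levels were -5.31, -3.65 and -0.69 in cKO and -6.00, -6.53 and -6.78 in control cells, an order over the cKO arrays like that of Bmp7. The E proteins, the partners that Id proteins hold, overlapped between the genotypes by the brightest probe of all 3 genes tested, with differences of 0.02 for Tcf3, 0.07 for Tcf4 and -0.14 for Tcf12. Without cKO array 3 Tcf3 was at 0.19 and Tcf12 at -0.24, and without control array 3 Tcf12 was at -0.06. A second Tcf12 probe lay lower on every cKO array (-0.37, adjusted p = 0.201).

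**Figure D4:**
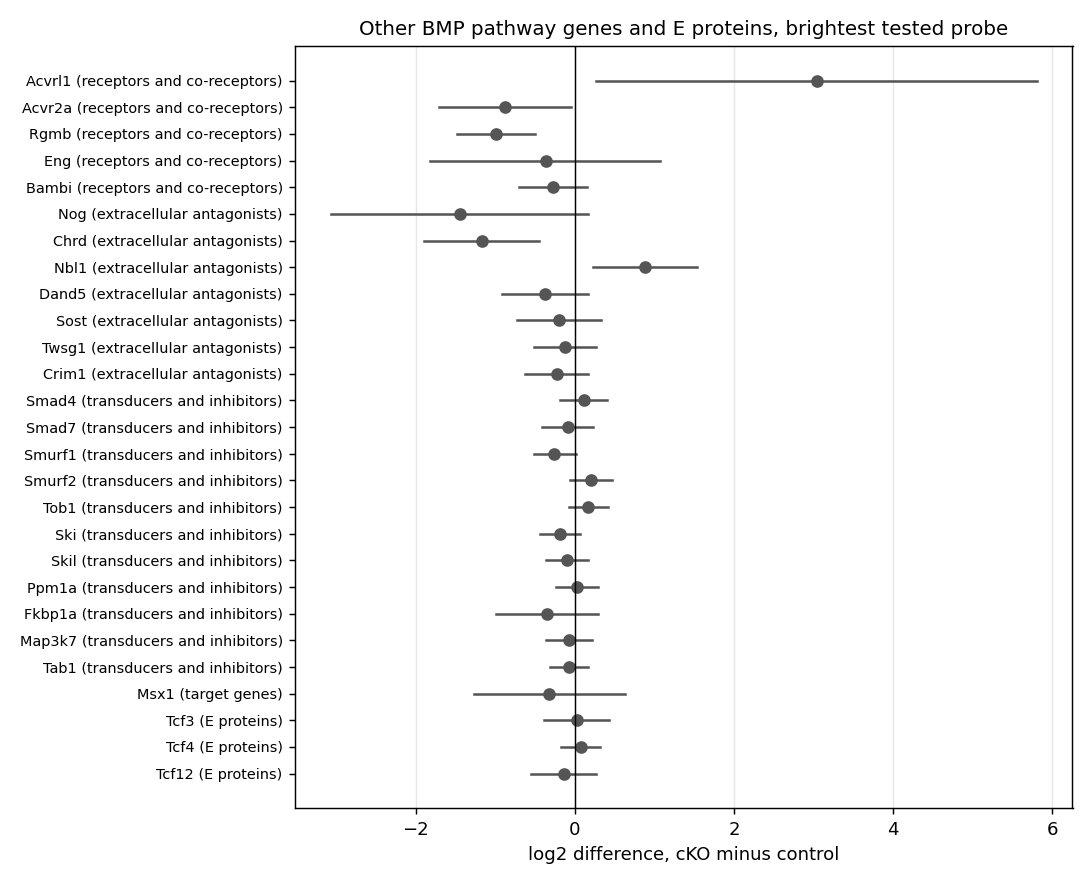
Log2 difference, cKO minus control (horizontal axis), of the brightest tested probe of each of 27 other BMP pathway genes and E proteins (vertical axis, with the list of each gene), with 95% confidence intervals from limma as lines. None had an adjusted p under 0.05, and the widest interval is that of Acvrl1 at 3.04.

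The cultures began from cells sorted for CD4, and none of the tested markers of other cells passed the test. Some lay apart between the genotypes (beside 15.9% of all tested probes above and 20.7% below), and their part in the differences above was not tested. Of 5 epithelial markers, Cdh1 lay higher on every cKO array, with 0.01, -0.63 and 0.43 against -0.94, -1.18 and -1.10 (difference 1.01, adjusted p = 0.142), as did Epcam (0.61, adjusted p = 0.156). Krt18 overlapped (0.45, or 0.21 without cKO array 3), whereas the keratins Krt8 and Krt19 were not well above background on any array. The summed relative signal of the brightest probes of these 5 genes was 1.49, 1.31 and 1.96 in cKO and 0.887, 0.814 and 0.911 in control cells. The globin gene Hbb-b1 lay higher on every cKO array, with -1.11, -1.25 and -0.02 against -2.35, -2.06 and -4.27 (difference 2.10, adjusted p = 0.163). The second Hbb-b1 probe also lay higher on every cKO array (2.26, adjusted p = 0.146 from limma), as did the fourth (1.89, not tested). The third Hbb-b1 probe overlapped (0.43, or 0.19 without cKO array 3). The other globin, Hba-a1, lay the opposite way, with -5.14, -5.11 and -6.57 in cKO and -4.07, -3.80 and -3.32 in control cells, passed the background call on 2 control arrays and no cKO array, and was not tested. Of the 3 red-cell genes the sum was 0.523, 0.467 and 1.04 against 0.278, 0.373 and 0.186. Hbb-b1 and Bmp7 were both highest on cKO array 3.

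Markers of B cells, myeloid cells and stroma were mostly near background. Of 4 B-cell genes only Cd79b was tested, and it overlapped (difference 0.60, or 0.27 without cKO array 3 and 0.36 without control array 3), while Ms4a1 was well above background on cKO array 3 alone. The B-cell sum was 0.538, 0.670 and 1.26 in cKO and 0.585, 0.617 and 0.372 in control cells. Of 5 myeloid genes only Csf1r was tested (difference 0.15, or -0.06 without cKO array 3), with sums of 0.141 to 0.149 in cKO and 0.114 to 0.316 in control cells. Of 4 stromal genes only Col1a2 was tested, with a difference of 0.34 that was 1.45 without control array 3 and 1.89 within the shared slide. Dcn and Pdgfrb were not well above background on any array, and the sums were 0.385 to 0.656 against 0.169 to 1.72. Markers of CD8 T cells were not near background: Cd8b1 lay between 1.4 and 2.04 on the 6 arrays and Cd8a between -1.02 and 1.0. Of 4 CD8 T and NK genes these were the ones tested, and both overlapped (Cd8a -0.86, or -0.49 without cKO array 3, and Cd8b1 -0.18), with sums of 3.93 to 4.4 against 4.44 to 5.63. Cd8b1 was at -0.32 without cKO array 3 and at -0.07 without control array 3. The NK receptor gene Ncr1 went the other way, with -4.27, -4.41 and -4.23 in cKO and -5.88, -5.84 and -6.58 in control cells. It passed the background call on 2 cKO arrays and no control array and was not tested.

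**Figure D5:**
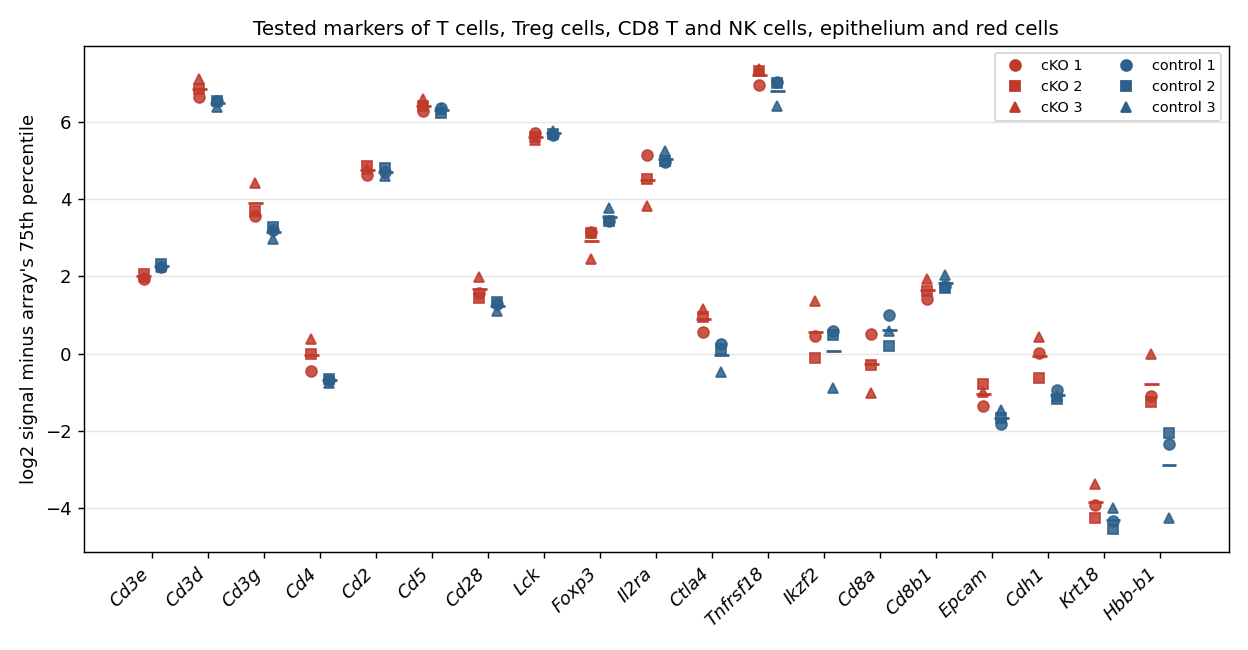
Level on the log2 scale, relative to the 75th percentile of the array (vertical axis), of the tested markers of 5 cell types (horizontal axis), with a symbol per array and lines at the means of 3 arrays. T-cell and Treg markers are measured on every array, Foxp3 lies lower and Cd3g, Cdh1 and Hbb-b1 lie higher on all cKO arrays, and cKO array 3 is often the most extreme.

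The regulatory T-cell markers beside Foxp3 did not all share its direction. Ctla4 lay higher on every cKO array (0.94, adjusted p = 0.135), and Tnfrsf18 overlapped (0.40, or 0.20 without control array 3). Ikzf2 overlapped by its brightest probe, with a difference of 0.51 that was 0.03 without control array 3 and 0.11 without cKO array 3, while 3 of its 5 probes lay higher on every cKO array (0.99, 1.22 and 0.92, or 0.50, 0.70 and 0.58 without control array 3). Il2ra, the IL-2 receptor α chain, overlapped with a difference of -0.56, which was -0.22 without cKO array 3. On cKO array 3, where Bmp7 was highest and Id1 and Id3 lowest, Foxp3 and Il2ra were also at their lowest, with 2.45 and 3.81.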

How the data were processed

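RNA of 6 iTreg cultures was labelled with Cy3 (0.5 μg each) and hybridized to 60-base Agilent arrays. The deposited values are spot intensities that the authors extracted with Agilent Feature Extraction, version 9.1 in the submitters' processing notes and 10.7.3.1 in the file headers. They are linear, background-subtracted and not normalized between arrays. A deposited table of log2 values by the authors, with equal medians of 6.15 (r of 0.998 or higher with the scanner signals), served as an alternative; its normalization is not given in the sources used here, and 0 of its columns stayed unassigned.

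Processed signals were taken to log2, lowered by the 75th percentile of their array and averaged over the spots of a probe, without control and outlier spots (123 to 140 per array). A probe was tested if well above background on 3 arrays (at least 1 spot each). Fits used limma 3.58.1 in R 4.3.3 and a threshold of 0.05; tables used Python 3.11.15. The fit was tested on simulated data. Samples were grouped by the labels. Replicates were separate mice. Positions (mm9) are those of the array; no mm9 gene model was used, so exons were not assigned. Of 28486 probes with RefSeq accessions, 27668 were matched to current symbols.

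The 10 genes and all lists were chosen with earlier results of these data known. Named were all 10 genes with every probe, pathway-list genes with separated groups or the 3 brightest of a list, and the 5 genes closest to Bmp7; others were named with their values in view. The alternatives tried were normexp correction (offset 50) with quantile or 75th-percentile scaling, quantile normalization, median scaling, the authors' table, no filter or a stricter one, the methods' t-test, the replicate number or slide as a term, array weights, the mean over a gene's probes and each array left out. Linear averaging of spots, the shared slide alone and the alternative fits of the other pathway genes were added after seeing the data.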

Additional observations from a re-analysis of the deposited data

How the results depend on the processing

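The calls across all probes were unstable: 33 probes higher and 21 lower in cKO in the reported fit became 51 and 26 with the median as the scaling point, 68 and 47 with quantile normalization after normexp, 12 and 16 with quantile normalization alone, 12 and 16 in the authors' table, 103 and 71 when a probe had to be well above background on each of the 6 arrays, and 1216 and 989 with array weights. There were 0 and 0 with normexp and the 75th percentile (which moved the median of all probes to 0.11; 1662 with an unadjusted p under 0.05), without a filter (4705), with the methods' t-test (4018 unadjusted, 0 after Benjamini-Hochberg) and with the slide as a term (1646). Leaving out an array gave 0 to 1 higher and 0 lower. Outside Bmp7, 1 probe of the 9 genes was called, 6 with array weights, and 0 with normexp and the 75th percentile, no filter, the methods' t-test, the slide as a term and each array left out. Of the other pathway genes 0 were called, and 3 with array weights (Acvr2a, Rgmb and Chrd).

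Cultures of both genotypes carry the numbers 1 to 3, but deviations of same-numbered arrays correlated at -0.14, 0.01 and -0.19, so the numbers were not taken as pairs. With the replicate block, 0 probes were called higher, 0 lower and 0 among the 9 genes, with 3627 at an unadjusted p under 0.05.

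Among single differences, Bmp7 moved from 3.69 to 2.14 and 2.42 with normexp (quantile, 75th percentile), Bmpr1a from 0.72 to 0.88 and Smad6 from 0.05 to 0.37 on the shared slide. Under 75th-percentile scaling after normexp Smad6 was 0.59 and Id1 -0.53 (second probe -0.40). Only with array weights did Bmpr1a (0.56, adjusted p = 0.0496), Id1 (-0.93, 0.0293) and Id3 (-0.51, 0.0279) pass the threshold. Small differences turned sign: Acvr1 to 0.06 with array weights; Bmpr2 to 0.06 with the slide as a term and on the shared slide, and to 0.01 with array weights; its second probe to 0.05, 0.05 and 0.08; Smad6 to -0.03 with quantile normalization after normexp; and, under 75th-percentile scaling after normexp, the second Smad1 probe to 0.22, the second Smad5 probe to 0.31 and the third to 0.07. The second Smad5 probe was 0.06 with the slide as a term and on the shared slide. Leaving out an array gave -0.11 to 0.01 for Bmpr2 (second probe -0.14 to 0.03), -0.12 to 0.03 for Smad1 and -0.11 to 0.17 for Smad6. The cause of these shifts was not tested. Bmpr1a, Id1, Id2, Id3 and Smad5 by their brightest probes kept their direction under every alternative run.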
